A study of Homo sapiens with 20 samples.

Results

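HEK293-GR is a line of human embryonic kidney cells engineered for constant expression of the glucocorticoid receptor (GR). The genes that BCOR holds up or down without hormone were read from 8 of the 20 libraries of the series, which hold 16 RNA libraries and 4 ChIP libraries. They are 4 siBCOR vehicle and 4 siNON vehicle libraries, chosen by the label of each library and not by any measured value. Cells of both groups were kept in steroid-depleted medium, carried the same receptor, and received the ethanol vehicle for 6 h. They differ in the small interfering RNA (siRNA) that was transfected at 20 nM for 72 h, a commercial pool against BCOR (siBCOR) or a non-targeting pool (siNON). With 1 pool against BCOR and 1 engineered line, an effect of BCOR loss and an effect of these siRNAs on other transcripts cannot be told apart. The labels call the 4 libraries of a group biological replicates, while the series text names 3. Polyadenylated RNA was sequenced, and each gene symbol was represented by 1 transcript, the most read one of the 16 RNA libraries.

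BCOR is a corepressor that binds the transcriptional repressor BCL6 and is a core part of a variant Polycomb complex, PRC1.1, with PCGF1, KDM2B, RING1 or RNF2, and RYBP. KDM2B brings this complex to unmethylated CpG-rich DNA at gene starts, and the RING proteins place ubiquitin on histone H2A. Loss of a corepressor can raise genes it represses directly and can change others through the products of those genes.

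Reads over the chosen transcripts came to between 19964795 and 25596860 per vehicle library. Libraries were scaled with edgeR, levels are given as CPM (read counts scaled to a common library size), and 16432 genes passed the filter on low counts. A gene was called where the quasi-likelihood F test of edgeR gave an adjusted p under 0.05, adjusted by Benjamini and Hochberg's method across the 16432 genes. Replicate 3 of siNON vehicle and replicate 2 of siBCOR vehicle stood apart from the other libraries of their groups, with standard deviations of log2 deviations from the group mean of 0.227 and 0.207, against 0.0748 to 0.136 in the other 6 vehicle libraries. VIM, a marker of this line, was at 586, 601, 476 and 566 CPM in siNON replicates 1 to 4. Genes of immune cells summed to between 18.8 and 21.3 CPM in siNON and between 16.5 and 21.1 CPM in siBCOR libraries, and 8 of those 16 genes, PTPRC and CD3E among them, were too low to be tested. Genes of fibroblasts summed to between 59.6 and 77.5 CPM in siNON and between 65.7 and 83.9 CPM in siBCOR libraries.

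BCOR itself (hg19 chromosome X, 39910499 to 39956719, minus strand) stood at 227, 210.3, 159 and 189 CPM in siNON replicates 1 to 4 and at 23.5, 22.3, 21.8 and 21.9 CPM in siBCOR replicates 1 to 4. All 4 siBCOR libraries lay far below all 4 siNON libraries, and the transcript was lowered 8.77-fold (log2 fold change -3.13 ± 0.123, edgeR adjusted p = 1.11e-10, where ± gives the standard error from the fit over 4 libraries a group). This value checks the labels and is not a finding. Transcript remained in each siBCOR library, so the comparison is between cells with much and cells with little BCOR mRNA.

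After depletion 1458 genes (8.87% of those tested) were higher and 1352 (8.23%) were lower. The changes were mostly small. The median was 0.35 on the log2 scale among the higher genes and -0.44 among the lower genes, and at least 2-fold changes were seen in 49 higher and 97 lower genes. Libraries of the 2 groups did not overlap in 2963 genes (18.0% of those tested), among them 1161 of the higher and 1025 of the lower genes. Of the called genes 51.9% were higher, and this split depended on how libraries were scaled and filtered. It was 41.5% with DESeq2 (1252 higher, 1762 lower), 42.9% with upper-quartile scaling (988 and 1313) and 40.7% with no filter on low counts (866 and 1263). Without siNON vehicle replicate 3 the counts were 1054 and 2015, without that library and siBCOR vehicle replicate 2 they were 1884 and 2750, and in a fit of only the 8 vehicle libraries they were 725 and 803. Each count of called genes therefore describes these libraries under 1 set of choices. In those fits 0 of the 2810 called genes had the opposite sign, and with the longest transcript per symbol 2 had. All these fits reuse the libraries in which the genes were called, so a kept sign is no independent support.

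**Figure D1:**
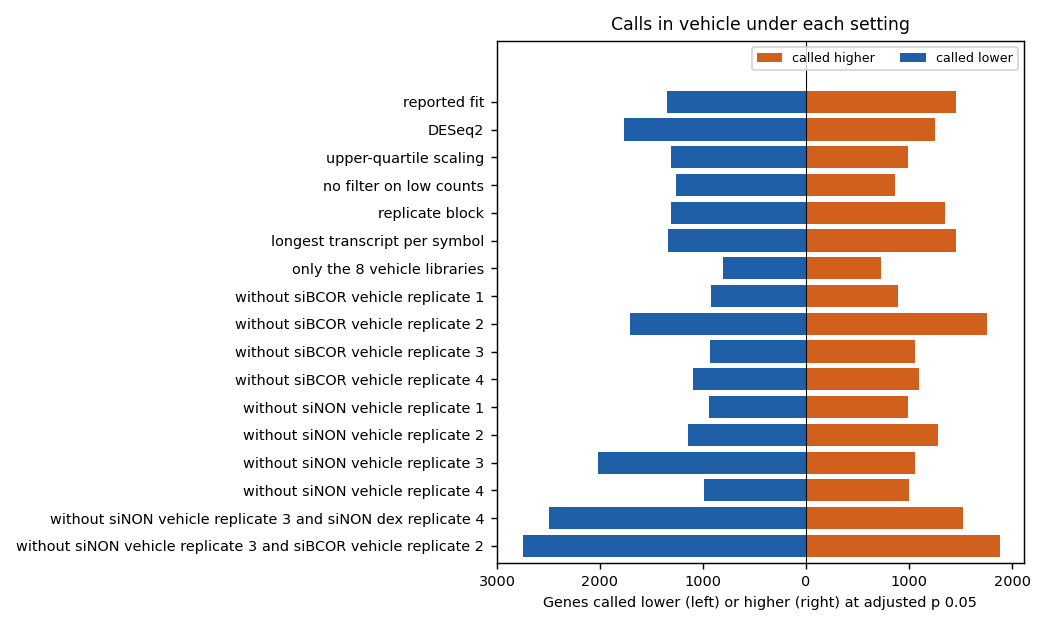
Number of genes called higher (right, orange) and lower (left, blue) after BCOR depletion in vehicle at an adjusted p of 0.05, for the reported fit and 16 alternatives. The bars for lower genes reach 2750 when both libraries that stand apart are left out, and those for higher genes run from 725 to 1884.

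The largest rise among well-measured genes without overlap was in SOCS2 (hg19 chromosome 12, 93964757 to 93970521, plus strand), a feedback inhibitor of growth hormone and cytokine signalling. It stood at 5.53, 7.69, 7.07 and 7.18 CPM in siNON replicates 1 to 4 and at 17.4, 20.1, 18.6 and 18.9 CPM in siBCOR replicates. Every siBCOR library lay above every siNON library, and the gene rose 2.73-fold (log2 fold change 1.45 ± 0.0918, edgeR adjusted p = 8.11e-08). A BCOR peak of the shared class covered its start. Its antisense neighbour SOCS2-AS1, which was chosen after its values were seen and may share reads with it, rose from 0.358, 0.290, 0.254 and 0.226 to 0.789, 0.627, 1.04 and 1.16 CPM (log2 fold change 1.65 ± 0.288, edgeR adjusted p = 0.00106). Other members of the family, also chosen after their values were seen, gave no call, with log2 fold changes of -0.12 for SOCS3 (edgeR adjusted p = 0.73) and -0.21 for CISH (edgeR adjusted p = 0.334).

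MAT1A, the liver enzyme that makes S-adenosylmethionine (hg19 chromosome 10, 82031576 to 82049434, minus strand), went from 2.79, 3.63, 3.13 and 3.21 CPM in siNON to 6.51, 6.94, 6.03 and 6.03 CPM in siBCOR libraries, a 2.01-fold rise (log2 fold change 1.01 ± 0.1003, edgeR adjusted p = 6.74e-06). CPS1, the mitochondrial enzyme of the first step of the urea cycle (hg19 chromosome 2, 211342406 to 211543831, plus strand), went from 4.14, 5.56, 4.95 and 4.56 to 11.2, 8.29, 8.80 and 9.70 CPM (log2 fold change 0.99 ± 0.112, edgeR adjusted p = 2.81e-05). Neither pair of groups overlapped, which was a condition for naming these rises, and both genes were low in these cells. STON1, an adaptor of clathrin-mediated endocytosis, rose from 7.37, 8.997, 9.31 and 7.09 to 15.9, 13.9, 16.4 and 16.8 CPM (log2 fold change 0.94 ± 0.1197, edgeR adjusted p = 7.16e-05). The readthrough transcript STON1-GTF2A1L (1.04) shares exons with it, so these are not independent results. BTK, a kinase best known from B cell receptor signalling, rose from 1.79, 1.64, 1.52 and 1.49 to 2.96, 3.33, 3.02 and 3.15 CPM (log2 fold change 0.94 ± 0.116, edgeR adjusted p = 5.26e-05), and MAP2, which binds microtubules in dendrites, from 3.26, 4.74, 4.70 and 3.88 to 7.65, 6.46, 10.2 and 7.28 CPM (log2 fold change 0.93 ± 0.149, edgeR adjusted p = 0.000556). PSMB9, a subunit of the immunoproteasome that is annotated with 8 copies on chromosome 6, rose by a log2 fold change of 0.98 ± 0.139.

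The remaining genes among the 15 largest rises were DENND2A (0.92), an activator of Rab GTPases, the tetraspanin gene TSPAN2 (0.92), NME5 (0.90), GPR137C (0.89) and CCDC74B (0.85), as log2 fold changes. The uncharacterised RNAs LOC102724593 (1.12) and LOC101927699 (1.07) overlap each other and SYT15 and may share reads. All 15 had a mean under 10 CPM in siNON cells, as the plot of the largest rises and falls shows.

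**Figure D2:**
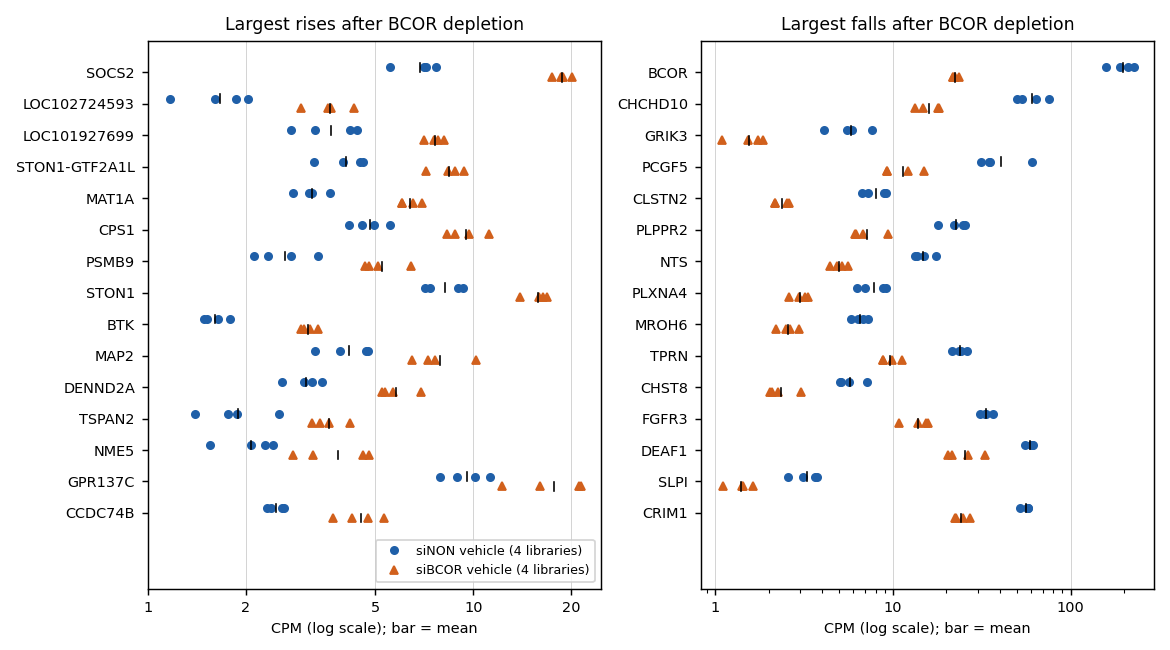
Level in CPM on a log axis of the 15 genes with the largest rise (left) and the 15 with the largest fall (right) among called genes whose mean count was 50 or more and whose groups did not overlap. Each point is 1 library, circles are siNON vehicle, triangles are siBCOR vehicle, and the short bars are means of 4 libraries. SOCS2 sits between 5.53 and 7.69 CPM in siNON and between 17.4 and 20.1 CPM in siBCOR libraries.

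The largest falls exceeded the largest rises. After BCOR, the largest was in CHCHD10 (hg19 chromosome 22, 24108021 to 24110159, minus strand), which codes for a protein of the space between the mitochondrial membranes. It stood at 75.4, 53.4, 49.9 and 63.7 CPM in siNON and at 14.8, 18.2, 13.3 and 17.9 CPM in siBCOR libraries, a 3.79-fold fall (log2 fold change -1.92 ± 0.136, edgeR adjusted p = 1.94e-07). GRIK3, a kainate-type glutamate receptor subunit (hg19 chromosome 1, 37261128 to 37499844, minus strand), fell from 5.89, 7.64, 4.104 and 5.51 to 1.85, 1.74, 1.09 and 1.53 CPM (log2 fold change -1.88 ± 0.183, edgeR adjusted p = 5.62e-06). Lack of overlap between the groups was a condition for naming these falls, and in both genes the margin was wide. CLSTN2, a calsyntenin of postsynaptic membranes, fell from 8.88, 9.19, 7.24 and 6.68 to 2.60, 2.17, 2.18 and 2.55 CPM (log2 fold change -1.74 ± 0.113, edgeR adjusted p = 9.38e-08), and NTS, the precursor of the peptide neurotensin, from 13.3, 13.6, 17.6 and 14.9 to 5.17, 4.87, 5.59 and 4.41 CPM (log2 fold change -1.57 ± 0.152, edgeR adjusted p = 5.32e-06). Unlike the rises, several of these falls were in genes of moderate level.

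FGFR3, a fibroblast growth factor receptor (hg19 chromosome 4, 1795039 to 1810599, plus strand), fell from 36.4, 32.9, 31.0 and 33.2 to 10.8, 15.7, 13.8 and 15.4 CPM (log2 fold change -1.26 ± 0.107, edgeR adjusted p = 1.33e-06). CRIM1, a membrane protein that binds bone morphogenetic proteins, fell from 57.5, 56.7, 57.5 and 52.3 to 27.0, 22.8, 24.97 and 22.5 CPM (log2 fold change -1.20 ± 0.0881, edgeR adjusted p = 3.02e-07). DEAF1, a transcription factor (hg19 chromosome 11, 644220 to 695754, minus strand), fell from 59.8, 61.9, 55.5 and 60.9 to 21.4, 33.2, 20.6 and 26.6 CPM (log2 fold change -1.23 ± 0.114, edgeR adjusted p = 3.15e-06), and its span overlaps TMEM80 on the other strand. PLPPR2 (-1.67), PLXNA4 (-1.36), a plexin that receives semaphorin signals, MROH6 (-1.34), TPRN (-1.30), a protein of hair cell stereocilia, the sulfotransferase gene CHST8 (-1.29) and the protease inhibitor gene SLPI (-1.22) completed the 15 largest falls, as log2 fold changes. Each of the 30 genes named for the size of its change kept its call in all 16 alternative fits that were run. Those fits reuse the libraries by which the 30 were chosen, so this is no independent support.

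Promoter windows of 3 called genes with a nearby peak are shown, with BCOR peaks from the authors' ChIP-seq lists, because KDM2B brings the complex to CpG-rich starts. The 3 were picked by hand from the 109 named genes with a promoter entry. Each runs from 250 bases before to 50 after the start in RefSeq (GRCh38.p14), 5′ to 3′ on the strand of the gene, with CG dinucleotides in capitals.
PLXNA4: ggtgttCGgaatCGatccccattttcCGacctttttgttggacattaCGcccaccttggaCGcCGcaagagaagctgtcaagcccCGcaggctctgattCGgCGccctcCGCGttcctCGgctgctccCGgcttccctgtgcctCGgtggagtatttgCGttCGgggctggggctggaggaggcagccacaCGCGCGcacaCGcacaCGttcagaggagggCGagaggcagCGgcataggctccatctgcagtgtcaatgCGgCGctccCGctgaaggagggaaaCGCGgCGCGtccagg
ID2: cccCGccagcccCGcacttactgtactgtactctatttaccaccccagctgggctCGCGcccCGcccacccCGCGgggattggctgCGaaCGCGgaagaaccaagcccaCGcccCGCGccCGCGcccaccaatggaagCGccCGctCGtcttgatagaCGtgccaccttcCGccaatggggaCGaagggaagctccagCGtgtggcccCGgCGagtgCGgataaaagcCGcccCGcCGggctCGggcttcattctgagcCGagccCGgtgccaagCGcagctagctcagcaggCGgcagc
NCOA3: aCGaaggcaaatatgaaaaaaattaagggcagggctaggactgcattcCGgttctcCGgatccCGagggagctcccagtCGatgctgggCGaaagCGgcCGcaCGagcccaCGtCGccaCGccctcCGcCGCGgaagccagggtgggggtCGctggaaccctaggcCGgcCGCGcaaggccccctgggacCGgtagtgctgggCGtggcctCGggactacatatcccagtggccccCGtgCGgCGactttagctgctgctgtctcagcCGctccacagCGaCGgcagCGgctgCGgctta
The window of PLXNA4, which fell, is chr7:132576421-132576720 on the minus strand and holds 30 CG dinucleotides. That of ID2, a transcription regulator gene that rose by 0.56 on the log2 scale, is chr2:8681806-8682105 on the plus strand and holds 33. That of NCOA3, a coactivator gene that rose by 0.62, is chr20:47501637-47501936 on the plus strand and holds 30. The median over all 35116 RefSeq promoter windows was 14, and 22.4% held at least 30 and 17.2% at least 33. As these 3 genes were picked with a nearby peak, their windows do not describe called genes at large. In hg19, the build of the peaks, the nearest peak lay 70 bp from the start of PLXNA4, 402 bp from that of ID2 and 268 bp from that of NCOA3. These distances are from hg19 starts, which were not matched to the starts of the windows. The builds differ, and the position of the peaks against the windows could not be read, so the sequences are not shown as bound DNA.

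Gene lists are described by their counts of called members, beside 8.87% higher and 8.23% lower among all genes tested. For many lists, but not all, the range of those counts over the 16 alternatives is given. A list near these shares is given for its members' values and not as a result about the list. Among the partners of BCOR, the PRC1.1 list of 11 genes, which includes BCOR itself, gave 1 higher, 2 lower and 8 not called. RING1, a catalytic subunit annotated with 6 copies on chromosome 6, fell from 69.6, 65.6, 59.2 and 75.8 to 46.2, 49.6, 44.6 and 47.4 CPM (log2 fold change -0.53 ± 0.0717, edgeR adjusted p = 0.000128). The groups did not overlap for it. USP7, a deubiquitinase of the complex, was called higher (log2 fold change 0.18 ± 0.0571, edgeR adjusted p = 0.0371), but this call was lost in 11 of 16 alternatives. Members with no call included PCGF1 (0.14, edgeR adjusted p = 0.207), KDM2B (0.06, edgeR adjusted p = 0.664), RNF2 (0.05, edgeR adjusted p = 0.806) and RYBP (0.06, edgeR adjusted p = 0.85). BCORL1, the paralogue of BCOR, stood at 82.3, 68.9, 51.3 and 65.2 CPM in siNON and 82.0, 77.0, 69.9 and 75.5 CPM in siBCOR libraries, and the groups overlapped (log2 fold change 0.18 ± 0.150, edgeR adjusted p = 0.447).

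The largest change in the other PRC1 complexes was in PCGF5 (hg19 chromosome 10, 92980359 to 93044088, plus strand), the RING-finger partner that defines another variant PRC1. It stood at 34.8, 31.3, 61.0 and 35.2 CPM in siNON replicates 1 to 4 and at 14.9, 9.26, 12.1 and 9.33 CPM in siBCOR replicates (log2 fold change -1.83 ± 0.241, edgeR adjusted p = 9.9e-05), with siNON replicate 3 well above the rest of its group. A shared BCOR peak lay 135 bp from its start. Of the 19 genes of this list 3 were higher, 4 lower and 12 not called. PHC2 (-0.45) fell, while BAP1 (0.27), which removes the H2A ubiquitin, rose, as log2 fold changes. Called members chosen after their values were seen included CBX2 (-0.20), CBX6 (0.38) and SCML2 (0.27). Among 13 PRC2 genes EZH1, an H3K27 methyltransferase (log2 fold change 0.37 ± 0.0638, edgeR adjusted p = 0.001), and RBBP7 (0.22) rose, 0 were called lower and 11 were not called. The call of RBBP7 was lost in 6 of 16 alternatives, and that of BAP1 in 1.

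Corepressors that work with BCL6-type factors split, with 5 higher, 4 lower and 14 not called of 23. GPS2, a subunit of the NCOR complex, fell from 104, 109, 96.1 and 109.9 to 80.0, 81.2, 80.1 and 83.9 CPM (log2 fold change -0.37 ± 0.0537, edgeR adjusted p = 0.000263), and a vehicle-enriched BCOR peak covered its start. The deacetylase gene HDAC1 fell (log2 fold change -0.29 ± 0.0471, edgeR adjusted p = 0.000536), and RCOR1, a scaffold of the CoREST complex, rose (log2 fold change 0.35 ± 0.0753, edgeR adjusted p = 0.00457). The list gave 1 to 5 higher and 2 to 10 lower over the 16 alternatives, 3 and 7 with DESeq2, and 2 and 6 without siNON vehicle replicate 3 and siBCOR vehicle replicate 2. BCL6 itself, chosen after its values were seen, was not called (log2 fold change 0.15 ± 0.0951, edgeR adjusted p = 0.311).

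HOX genes, which pattern the body axis and are classical Polycomb targets, were more often higher than lower. Of 36 tested, 10 rose, 1 fell and 25 were not called, and the median log2 fold change over the list was 0.16, where it was 0.025 over all genes tested. HOXA11 went from 57.5, 50.2, 48.2 and 54.9 to 73.6, 67.1, 67.8 and 71.5 CPM (log2 fold change 0.41 ± 0.0733, edgeR adjusted p = 0.00122), and HOXB9 from 168, 181, 139 and 173 to 216, 227, 204 and 234 CPM (log2 fold change 0.41 ± 0.0877, edgeR adjusted p = 0.00414). HOXB7 (0.39) rose as well, and HOXB2, chosen after its values were seen, fell (log2 fold change -0.41 ± 0.128, edgeR adjusted p = 0.0338). The 10 rises ran from 0.20 for HOXD13 to 0.67 for HOXD1, both chosen after their values were seen. Over the 16 alternatives the list gave 6 to 10 higher and 0 to 1 lower, with 6 higher in the fit of the 8 vehicle libraries, with no filter, and without siNON vehicle replicate 2, siNON vehicle replicate 3 or siBCOR vehicle replicate 4. The median fell to 0.059 without siNON vehicle replicate 3 and to 0.074 without that library and siBCOR vehicle replicate 2. The call of HOXB2 was lost with a replicate block and without siBCOR vehicle replicate 1 or 3 or siNON vehicle replicate 1 or 4.

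Other developmental transcription factors moved the other way more often, with 9 higher, 21 lower and 98 not called of 128. FOXC1, a forkhead factor of mesoderm and eye development, fell from 162, 139, 142 and 154 to 91.6, 95.8, 94.1 and 93.3 CPM (log2 fold change -0.67 ± 0.0810, edgeR adjusted p = 4.69e-05). UNCX (-1.73) and SOX18 (-0.97), both under 3 CPM in every library, fell too. ID2, which blocks helix-loop-helix differentiation factors, rose from 60.8, 56.2, 67.8 and 67.9 to 93.4, 84.7, 94.3 and 100.2 CPM (log2 fold change 0.56 ± 0.0726, edgeR adjusted p = 8.52e-05). The counts were 10 and 40 without the 2 libraries that stand apart, and 4 to 10 higher and 16 to 40 lower over the 16 alternatives.

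**Figure D3:**
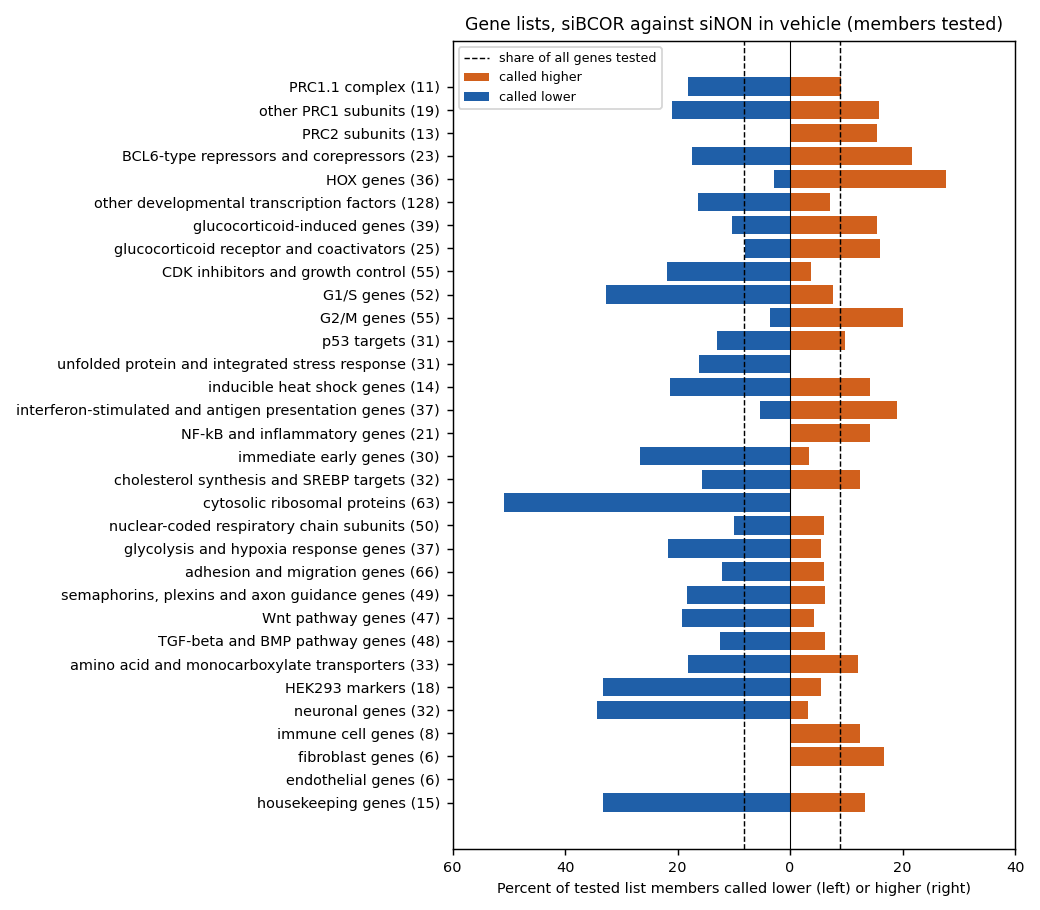
Percent of the tested members of each of 32 gene lists that were called higher (right, orange) or lower (left, blue) after BCOR depletion in vehicle, with the number tested in parentheses. Dashed lines mark the shares over all genes tested, 8.87% higher and 8.23% lower. Ribosomal protein genes stand out on the lower side, with 32 of 63 called lower and 0 higher.

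Ribosomal protein genes were lower as a group. All 63 had a log2 fold change below 0, 32 were called lower and 0 higher, and the median was -0.23. Their summed level was 71007, 69348, 67493 and 76118 CPM in siNON replicates 1 to 4 and 57347, 64619.9, 57359.9 and 61508 CPM in siBCOR replicates. Every siBCOR library lay below every siNON library. RPS12 fell from 670.4, 651, 660.1 and 721 to 481, 513, 474 and 488 CPM (log2 fold change -0.47 ± 0.0582, edgeR adjusted p = 6.27e-05), and RPL18 from 937, 849.7, 837 and 963 to 538, 737, 583 and 658 CPM (log2 fold change -0.51 ± 0.0853, edgeR adjusted p = 0.000753). The count of lower genes was 54 without the 2 libraries that stand apart and 23 in the fit of the 8 vehicle libraries. The lowest count over the alternatives was 20, without siBCOR vehicle replicate 1. Of 15 common reference genes 5 fell, 2 rose (YWHAZ and SDHA) and 8 were not called, with a median of 0.014. YWHAZ was chosen after its values were seen. GAPDH, 1 of the 5, was at 5075, 4641, 4410.1 and 5223 CPM in siNON and 3863, 4128, 3436 and 3755 CPM in siBCOR libraries (log2 fold change -0.35 ± 0.0675, edgeR adjusted p = 0.00219).

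Genes of the cell cycle split by phase. Of 52 genes of G1 and DNA replication 17 fell, 4 rose and 31 were not called, while of 55 genes of G2 and mitosis 11 rose, 2 fell and 42 were not called. TK1, which makes thymidine nucleotides, fell from 164, 150.1, 162 and 170.2 to 93.6, 114, 90.1 and 103 CPM (log2 fold change -0.69 ± 0.0786, edgeR adjusted p = 2.84e-05), and the ribonucleotide reductase gene RRM2 from 347, 348, 334 and 346 to 289, 259.9, 280.0 and 251 CPM (log2 fold change -0.35 ± 0.0587, edgeR adjusted p = 0.000832). UHRF1, which maintains DNA methylation (-0.50), and the uracil-DNA glycosylase gene UNG (-0.27) fell as well. CKS2, a subunit of cyclin-dependent kinases, rose from 117, 108, 121.9 and 127 to 177, 161, 173 and 176 CPM (log2 fold change 0.53 ± 0.0617, edgeR adjusted p = 3.12e-05), and the mitotic kinesin gene KIF2C from 100.3, 113, 98.3 and 104 to 133, 139, 121 and 127 CPM (log2 fold change 0.32 ± 0.0590, edgeR adjusted p = 0.00147), while CENPM (-0.42) and CDC20 (-0.29) fell. In these bulk libraries fewer cells in a phase and less RNA per cell cannot be told apart.

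The summed G1 and replication genes stood at 8955, 8991, 8835 and 8961 CPM in siNON and at 8308, 8057, 8041 and 7898 CPM in siBCOR libraries, with no overlap. The summed G2 and mitosis genes stood at 7485, 7566, 8305 and 7350.3 and 8595, 7521, 8507 and 8092 CPM, and there siNON replicate 3 and siBCOR replicate 2 put the groups into overlap. The higher count of the G2 list depended on the settings, at 5 with upper-quartile scaling, 3 with no filter and 5 without siNON vehicle replicate 3. The 4 G1 genes called higher fell to 0 with upper-quartile scaling, while without siNON vehicle replicate 3 and siBCOR vehicle replicate 2 the G1 list gave 1 and 21 and the G2 list 8 and 3. The 17 called lower in the G1 list became 8 in the fit of the 8 vehicle libraries.

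**Figure D4:**
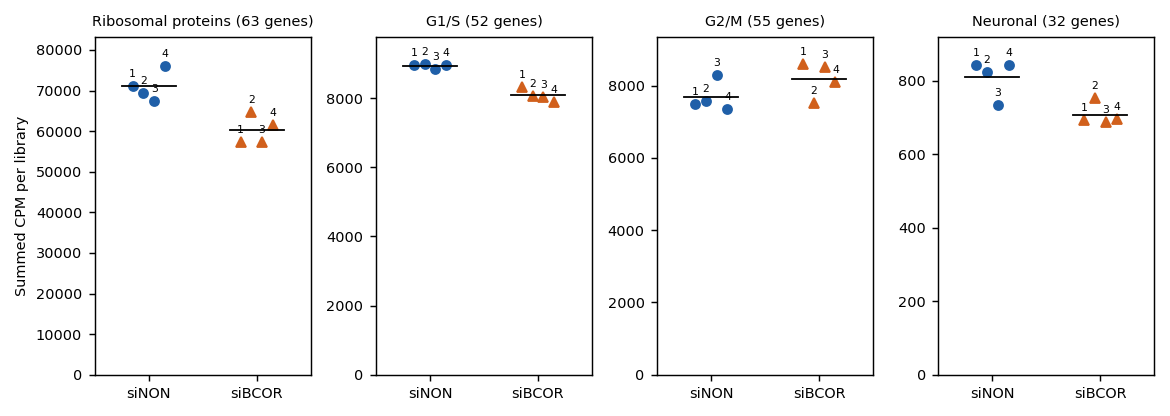
Summed CPM of 4 gene lists in each vehicle library, with circles for siNON, triangles for siBCOR, the replicate number above each point and a line at the mean of 4. Groups do not overlap for ribosomal protein and G1/S genes, and overlap for G2/M and neuronal genes.

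Of 55 genes of CDK inhibition and growth control, 12 fell, 2 rose and 41 were not called (higher and lower 3.64% and 21.8%, against 8.87% and 8.23% of all genes tested). Besides FGFR3, FGFR1 fell from 76.9, 78.6, 69.9 and 72.5 to 44.2, 48.2, 44.0 and 44.6 CPM (log2 fold change -0.72 ± 0.0652, edgeR adjusted p = 2.55e-06), with a shared BCOR peak 190 bp from its start. The growth factor gene IGF2 fell from 7.33, 9.67, 5.97 and 7.63 to 3.67, 4.05, 2.23 and 3.76 CPM (log2 fold change -1.15 ± 0.222, edgeR adjusted p = 0.00219), where INS-IGF2 may share its reads. The inhibitor gene CDKN2B fell as well (log2 fold change -0.37 ± 0.0750, edgeR adjusted p = 0.00293). Over the 16 alternatives the list gave 2 to 6 higher and 9 to 20 lower, the highest counts without the 2 libraries that stand apart.

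Neuronal genes, which HEK293 cells express at low level, gave 1 higher, 11 lower and 20 not called of 32, with a median log2 fold change of -0.28. STMN3, a stathmin that acts on microtubules, fell from 32.2, 33.4, 30.4 and 32.8 to 12.7, 20.0, 15.8 and 15.9 CPM (log2 fold change -1.004 ± 0.111, edgeR adjusted p = 2.24e-05), and the neuronal tubulin gene TUBB3 from 18.2, 15.9, 13.2 and 16.8 to 8.24, 9.55, 8.41 and 7.79 CPM (log2 fold change -0.92 ± 0.115, edgeR adjusted p = 6.31e-05). CPLX1, a complexin of synaptic vesicle release, was at 2.67, 2.37, 1.65 and 2.26 CPM in siNON and 0.316, 0.675, 0.643 and 0.881 CPM in siBCOR libraries (log2 fold change -1.85 ± 0.275, edgeR adjusted p = 0.000292). The synaptic gene SNAP25, chosen after its values were seen, was the 1 higher member, and the list gave 0 higher in 11 of 16 alternatives (log2 fold change 0.37 ± 0.107, edgeR adjusted p = 0.025). Their sum stood at 843, 826, 734 and 844 CPM in siNON and 694, 754, 688 and 696 CPM in siBCOR libraries, where siNON replicate 3 and siBCOR replicate 2 overlap, and without those 2 libraries the counts were 0 and 17. The lower count ran from 7 to 17 over the 16 alternatives. Of the 18 genes used to check the cell line, 6 fell, among them VIM by -0.42, NEFH by -0.90 and NES by -0.64 on the log2 scale. The 1 that rose was MAP2, by 0.93.

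Semaphorin, plexin and axon guidance genes gave 3 higher, 9 lower and 37 not called of 49 (6.12% and 18.4%, against 8.87% and 8.23% of all genes tested), with PLXNA2 falling from 41.3, 38.1, 28.6 and 36.7 to 19.01, 21.1, 17.1 and 18.0 CPM (log2 fold change -0.94 ± 0.139, edgeR adjusted p = 0.000275), SEMA3F at -0.84, EFNB1 at -0.61 and the receptor gene ROBO2 rising by 0.58. Adhesion and migration genes gave 4 higher, 8 lower and 54 not called of 66 (6.06% and 12.1%, median -0.012), near the shares over all genes, and the counts were 5 and 22 without the 2 libraries that stand apart. The matrix protease gene ADAMTS1 rose from 674, 698, 565 and 610.5 to 972, 948, 913 and 930.1 CPM (log2 fold change 0.56 ± 0.0652, edgeR adjusted p = 3.12e-05), and LAMC1, a laminin chain, by 0.38, while NCAM1 (-0.49) and CDH4 (-0.85) fell. Wnt pathway genes gave 2 higher, 9 lower and 36 not called of 47 (4.26% and 19.1%), with DVL2, a Dishevelled signal transducer, at -0.51 ± 0.0743, WNT7B at -0.999 ± 0.148 and the secreted inhibitor genes SFRP1 at -0.38 and FRZB at 0.74. TGF-beta and BMP genes gave 3 higher, 6 lower and 39 not called of 48, with falls in INHBE (-0.81), whose groups overlap, INHBB (-0.61) and FSTL1 (-0.27). Without the 2 libraries that stand apart the counts were 2 and 14 for guidance, 4 and 13 for Wnt and 6 and 13 for TGF-beta and BMP genes. Over the 16 alternatives guidance genes gave 1 to 3 higher and 6 to 15 lower, Wnt genes 1 to 4 higher and 5 to 13 lower, and TGF-beta and BMP genes 0 to 6 higher and 5 to 13 lower.

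Immediate early genes gave 1 higher, 8 lower and 21 not called of 30. JUNB, an AP-1 subunit, fell from 23.8, 17.5, 17.1 and 20.2 to 6.94, 12.5, 9.89 and 11.8 CPM (log2 fold change -0.94 ± 0.153, edgeR adjusted p = 0.000635), with ARC (-0.74) and KLF4 (-0.55) also lower, and the orphan nuclear receptor gene NR4A2 rose from 4.46, 4.40, 4.19 and 4.74 to 7.14, 7.18, 7.32 and 6.63 CPM (log2 fold change 0.67 ± 0.0908, edgeR adjusted p = 0.000123). Interferon-stimulated and antigen presentation genes gave 7 higher, 2 lower and 28 not called of 37. IFIT3 rose by 0.99 from under 1 CPM, and HLA-B, which is annotated with 6 copies, was called lower (-0.39) with groups that overlapped. Without the 2 libraries that stand apart the counts were 6 and 7. NF-kB genes gave 3 higher and 0 lower of 21, with TNFAIP3, a feedback inhibitor, at 0.38 and SOD2 at 0.27, and the call of CXCL2 (0.83) was lost in 14 of 16 alternatives. Over these the NF-kB list gave 0 to 4 higher and 0 to 2 lower, with 0 higher without siBCOR vehicle replicate 1, and the interferon list 3 to 7 higher and 1 to 7 lower. The immediate early list gave 1 higher and 6 to 12 lower.

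Genes of the unfolded protein and integrated stress response gave 0 higher, 5 lower and 26 not called of 31, with CRELD2 at -0.44 ± 0.0754, and the lower count was 19 without the 2 libraries that stand apart and as low as 3 in other alternatives. Heat shock genes gave 2 higher, 3 lower and 9 not called of 14, with DNAJB1 at 0.38 and HSPB8 at -0.71. In the same order, the p53 targets gave 3, 4 and 24 of 31, with SFN at -0.80, GADD45A at -0.63 and TP53INP1 at 0.43. Cholesterol genes gave 4, 5 and 23 of 32, with DHCR7, an enzyme of the last steps of the pathway, falling from 163, 139, 139 and 161 to 102, 112, 98.8 and 105 CPM (log2 fold change -0.52 ± 0.0682, edgeR adjusted p = 8.83e-05) and INSIG1, which restrains SREBP, rising from 394, 382, 403 and 384 to 507, 472, 495 and 501 CPM (log2 fold change 0.34 ± 0.0473, edgeR adjusted p = 0.00017).

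Respiratory chain genes gave 3, 5 and 42 of 50, with 2 and 19 called without the 2 libraries that stand apart, and the call of SDHA (0.21) was lost in 11 of 16 alternatives. Glycolysis and hypoxia genes gave 2, 8 and 27 of 37, with the vasodilator peptide gene ADM at -0.70 ± 0.119 and the mitophagy gene BNIP3 at 0.37 ± 0.0789. Amino acid and monocarboxylate transporters gave 4, 6 and 23 of 33, with SLC36A1 at 0.44 and SLC6A8 at -0.32. Over the 16 alternatives glycolysis genes gave 1 to 4 higher and 2 to 14 lower, with 14 lower without the 2 libraries that stand apart, 2 in the fit of the 8 vehicle libraries and 3 without siNON vehicle replicate 1 or siBCOR vehicle replicate 3. Transporters gave 2 to 6 higher and 1 to 10 lower, with 1 lower without siBCOR vehicle replicate 1 or siNON vehicle replicate 2. Respiratory chain genes gave 0 to 3 higher and 2 to 19 lower, cholesterol genes 3 to 7 higher and 2 to 10 lower and p53 targets 1 to 6 higher and 3 to 6 lower. Among immune, fibroblast and endothelial genes 2 of 20 were called, namely CD8A (0.45), whose groups overlap, and ACTA2 (0.57), which overlaps FAS and an antisense transcript. Median and mean differ in sign for the PRC1.1, PRC2, glucocorticoid-induced, p53, heat shock, interferon and housekeeping lists.

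Of 39 genes known to be induced by glucocorticoids, 6 were higher without hormone, 4 lower and 29 not called (15.4% and 10.3%, against 8.87% and 8.23% of all genes tested), with a median of -0.024 and 5 to 9 higher and 3 to 8 lower over the 16 alternatives. TSC22D3, the anti-inflammatory leucine zipper gene also called GILZ (hg19 chromosome X, 106956452 to 106960291, minus strand), fell from 361, 459, 314 and 383 to 176, 252, 178 and 214 CPM (log2 fold change -0.89 ± 0.115, edgeR adjusted p = 8.84e-05). KLF9, a zinc finger factor, rose from 21.7, 25.2, 24.8 and 21.6 to 39.4, 31.7, 39.2 and 43.7 CPM (log2 fold change 0.72 ± 0.103, edgeR adjusted p = 0.000183), and GLUL, the glutamine synthetase gene, from 626, 624, 546 and 623 to 793, 827, 707 and 766 CPM (log2 fold change 0.35 ± 0.0611, edgeR adjusted p = 0.00099). The effect of 100 nM dexamethasone, a synthetic glucocorticoid, in siNON cells uses the same siNON vehicle libraries, and it stood at 0.62 for SOCS2 (edgeR adjusted p = 9.31e-05), 1.57 for TSC22D3 (edgeR adjusted p = 1.36e-08), 0.20 for KLF9 (edgeR adjusted p = 0.205) and 0.06 for GLUL (edgeR adjusted p = 0.577).

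The receptor transcript NR3C1 stood at 943, 1035, 1071 and 942 CPM in siNON and 1125, 1053, 1129.7 and 1121 CPM in siBCOR libraries, with overlap and no call (log2 fold change 0.15 ± 0.0539, edgeR adjusted p = 0.0647). Reads of the endogenous gene were not told apart from those of the receptor this line was made to express. Among 25 genes of the receptor and its coactivators 4 were higher and 2 lower. The coactivator genes NCOA3 and NCOA1 rose, from 44.7, 47.5, 48.5 and 39.5 to 76.1, 58.1, 76.2 and 65.8 CPM (log2 fold change 0.62 ± 0.0833, edgeR adjusted p = 0.000119) and by 0.42 ± 0.0732, and the methyltransferase gene CARM1 (-0.42 ± 0.0805) and the cochaperone gene BAG1 (-0.52 ± 0.0676) fell.

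Whether the same effects appear with hormone was read from the 8 other RNA libraries, 4 siBCOR and 4 siNON, which received 100 nM dexamethasone for 6 h. BCOR itself was lower with hormone in siNON cells (log2 fold change -1.06 ± 0.113, edgeR adjusted p = 1.45e-06). Its mean there was 93.8 CPM, against 196 CPM in vehicle. With hormone the siRNA lowered BCOR by -2.67 ± 0.123 on the log2 scale, to a mean of 14.7 CPM, against -3.13 in vehicle. The hormone comparison therefore starts from less BCOR mRNA. There 3406 genes (20.7% of those tested) were called higher and 3085 (18.8%) lower after depletion. The 2 comparisons use different libraries but 1 fit, which shares the estimate of the spread. Of the genes higher in vehicle, 1279 (87.7%) had the same sign with hormone and 710 (48.7%) were called the same way. Of those lower in vehicle, 1314 (97.2%) had the same sign and 1062 (78.6%) were called the same way. The same-sign share over all genes tested is not given here, so the shares of 87.7% and 97.2% stand without a background. SOCS2 rose by 1.64 ± 0.0882 with hormone (edgeR adjusted p = 6.07e-09), CHCHD10 changed by -1.99 ± 0.136 and PCGF5 by -1.15 ± 0.237. Of the 15 largest rises, 14 were called the same way with hormone, and CCDC74B (0.27, edgeR adjusted p = 0.0738) was not called, while all 15 largest falls, BCOR included, were.

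The difference between the depletion effects with and without hormone was called for 16 genes (0.0974% of those tested) and had an unadjusted p under 0.05 for 3163 genes. Of the genes called in vehicle, 9 were among the 16. GLUL rose in vehicle and stood at -0.11 ± 0.0611 with hormone (difference -0.47 ± 0.0864, edgeR adjusted p = 0.0472). INSIG1 went from 0.34 in vehicle to -0.05 with hormone (difference -0.39 ± 0.0670, edgeR adjusted p = 0.0351), and SOX18 from -0.97 to 0.21 (difference 1.17 ± 0.207, edgeR adjusted p = 0.0367). The count of 16 was 96 with DESeq2 and 1790 without siNON vehicle replicate 3 and siNON dex replicate 4, which also stands apart from its group.

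**Figure D5:**
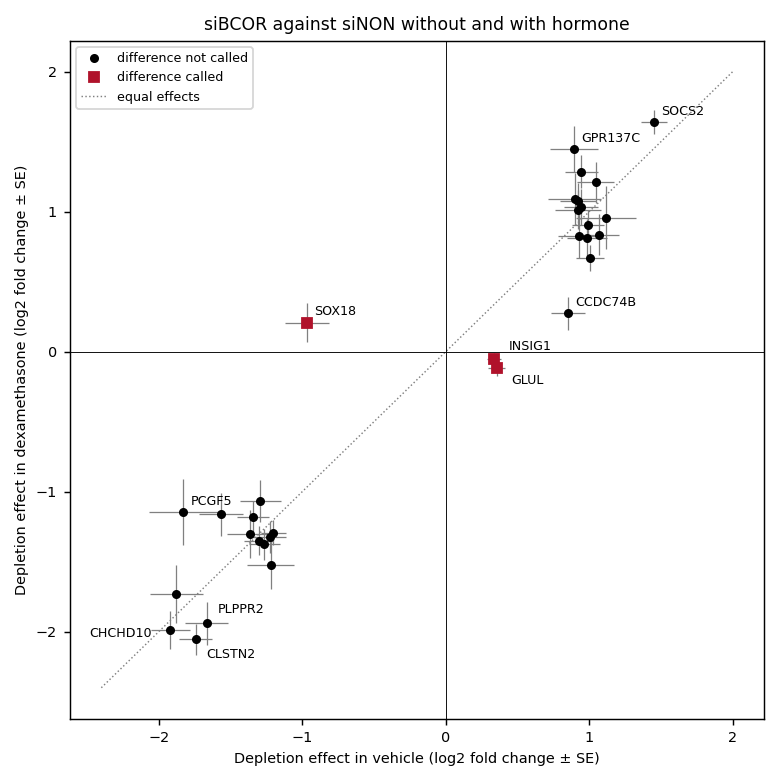
Log2 fold change after BCOR depletion in vehicle (x axis) and in dexamethasone (y axis), with SE, for the 15 largest rises, the 14 largest falls other than BCOR, and GLUL, INSIG1 and SOX18. Red squares are genes whose difference was called, and the dotted line marks equal effects. SOX18 lies at -0.97 in vehicle and 0.21 with hormone.

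BCOR binding near the changed genes was read from the authors' peak lists, which hold 8587 shared, 267 vehicle-enriched and 3055 dex-enriched peaks, measured after 1 h of vehicle or dexamethasone in cells for which the labels name no siRNA. A shared or vehicle-enriched peak lay within 1 kb of the start of 297 of the 1458 higher genes (20.4%, exact 95% binomial interval 18.3% to 22.5%) and of 310 of the 1352 lower genes (22.9%, 20.7% to 25.3%). Among all genes tested the share was 19.2% (3154 genes). Genes with such a peak were called higher in 9.42% and lower in 9.83% of cases, and genes without one in 8.74% and 7.85%. Genes with a peak also had more reads, with a median over genes of 699.9 mean counts per vehicle library against 452. Most genes with a peak at the start were thus not called, and most called genes had no peak there. Of the 15 largest rises 4 had a peak within 1 kb (SOCS2, STON1, STON1-GTF2A1L and GPR137C), as did 4 of the 15 largest falls (PCGF5, PLPPR2, PLXNA4 and CHST8).

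Called genes also differed in transcript length, level, kind and chromosome. The median transcript was 3323 nucleotides long among higher genes, 2523.5 among lower genes and 3023.5 among all tested. Lower genes had the higher level, with a median of 12.05 CPM per kilobase in siNON vehicle libraries against 6.84 for higher genes and 6.38 for all. The same libraries enter the fold change by which genes were called, so this level and the calls are not independent. Noncoding RNAs were 151 of the higher genes (10.4%), 72 of the lower genes (5.33%) and 9.85% of all tested. On chromosome 19, 167 of 1161 tested genes (14.4%) fell and 56 (4.82%) rose, the largest share of lower and the smallest share of higher genes among the 23 chromosomes with at least 100 tested genes. The part of length and level in these calls was not tested.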

How the data were processed

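Per the submitters' processing notes, Trimmomatic, FastQC, TopHat2, Bowtie 0.12.9, bedtools and HOMER 4.10.3 were used. Per the file headers, the authors' RNA table holds raw HOMER exon counts in hg19, with no depth adjustment, for 65572 RefSeq transcripts. In the authors' deposited peak files every score is 0, and scores were not used. How peak classes were defined and whether peaks were called on pooled libraries is not given in the sources used here. The header gives no strand setting, so overlapping genes can share reads (PCNA-AS1 held 24.3% of the reads of PCNA).

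Each of 27896 symbols was represented by its transcript with the most reads, and 134 transcripts without a name (0.0664% of counts) were left out. Counts were fitted with edgeR 4.0.16 in R 4.3.3 (TMM scaling, filterByExpr, quasi-likelihood F test) as 4 group means over 16 libraries, so both hormone states share the spread. The standard error (SE) of a log2 fold change was taken from its F statistic. The p-values rest on the spread between the 4 libraries within each group, estimated over all 4 groups and so also over the dexamethasone libraries. Alternatives were DESeq2 1.42.0, upper-quartile scaling, no filter, a replicate block, the longest transcript, the vehicle libraries alone, and libraries left out. The scripts were tested on simulated data.

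Named genes were BCOR, BCORL1, PCGF1, KDM2B, RING1, RNF2, RYBP and NR3C1, whether called or not. To these were added the 15 largest changes each way among called genes with at least 50 mean counts and no overlap. Up to 4 called members per list, by smallest adjusted p, were added as well. Some genes the rule names are not reported here. The genes, the 32 lists and the rule were chosen with earlier results of these data known. Promoters came from RefSeq (GRCh38.p14). GC content was not compared: only 78.0% of tested genes matched a promoter, below the minimum set for such a check, which is therefore void.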

Additional observations from a re-analysis of the deposited data

Results flagged for a closer look

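For each named gene and the ribosomal sum, the 4 values of each vehicle group were compared, 288 sets in all. In 16 sets (5.56%) 1 library lay far from the other 3 by Dixon's criterion, where chance gives about 1 in 20 for independent sets. These sets share the same 8 libraries, and many genes were named for groups that did not overlap, so that rate is no yardstick here. Of the 16, 6 were in siNON replicate 3 and 5 in siBCOR replicate 2. In siNON replicate 3, RYBP (70.1 CPM), PCGF5 (61.0 CPM) and SLC1A3 (96.7 CPM) were the highest of their group, and GLUL (546 CPM), KLF4 (8.93 CPM) and CDH4 (12.9 CPM) the lowest. In siBCOR replicate 2, PHC2 (56.0 CPM), FGFR1 (48.2 CPM), WNT7B (7.62 CPM) and VIM (445 CPM) were the highest and NR3C1 (1053 CPM) the lowest. In siNON replicate 4, CENPM (47.1 CPM) and UQCRH (222 CPM) were the highest and CRIM1 (52.3 CPM) the lowest. VLDLR was high in siNON replicate 2 (49.1 CPM) and IFIT3 in siBCOR replicate 3 (1.38 CPM).

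The depletion effect differed between dexamethasone and vehicle, by the test of the difference itself in edgeR, for 9 genes called in vehicle. On the log2 scale, dexamethasone minus vehicle, the difference was -0.63 for ACSL1 (0.27 in vehicle, -0.36 in dexamethasone), -0.47 for GLUL, -0.39 for INSIG1 and -0.63 for SNX33 (0.30 and -0.33). It was -1.43 for RTL9 (0.74 and -0.69), -2.15 for SNORD137 (0.90 and -1.25) and -1.43 for TUBA3FP (0.76 and -0.67). It was 0.73 for RHOU (-0.38 and 0.36) and 1.17 for SOX18. All 9 but GLUL, INSIG1 and SOX18 were chosen for this difference after their values were seen.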

How the results depend on the processing

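The 1458 genes called higher became 866 with no filter on low counts, 725 in the fit of the 8 vehicle libraries, 328 with a log2 fold change of at least 0.5, and 890 to 1884 with libraries left out. The 1352 called lower became 803, 545 and 920 to 2750 in the last 3 of these. The 16 genes whose effect differs with hormone became 96 with DESeq2, 6 with upper-quartile scaling, 5 with no filter, 3 with a replicate block, and 3 to 1790 with libraries left out. With a 5 kb window the share of genes with a peak was 24.5% among higher and 30.8% among lower genes, against 23.7% among all tested.

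The cause of these shifts was not tested. Leaving libraries out changes both how many are fitted and which ones, and these were not told apart. Leaving out siNON vehicle replicate 3 with siBCOR vehicle replicate 2, and all list counts under other settings, were chosen after seeing the data. With the replicate number as a block 1352 genes were higher and 1315 lower. Same-numbered vehicle libraries correlated in their deviations at -0.43, 0.31, 0.83 and 0.13, so the numbers were not taken to pair them. Not every library correlated best with its own number. The correlation largest in size was -0.86, between siBCOR vehicle replicate 2 and siNON vehicle replicate 3, the libraries that stand apart.

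Of 2287 values for named genes under alternatives, 2195 kept direction and side of the threshold, 83 lost the call, 2 gained one and 7 changed sign. The 7 were in genes with no call, with libraries left out. The log2 fold change of KDM2B ran from -0.0535 to 0.11 (at -0.03 without siNON vehicle replicate 3), the log2 fold change of RNF2 from -0.0109 to 0.18 and the log2 fold change of RYBP from -0.00567 to 0.26. Calls were lost most often for CXCL2 (14 of 16 alternatives), SDHA and USP7 (11 each), CD8A (9), UQCRH (7), and RBBP7 and SLC1A3 (6 each).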
